A study of Mus musculus with 6 samples.

Results

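The T cell receptor signalling machinery of splenic regulatory T cells (Treg cells) was followed through 42 genes, chosen by name as the CD3 chains, proximal kinases, adaptors, effector enzymes, phosphatases and other inhibitors, and calcineurin and NFAT genes. All 42 were found in the deposited table of 46078 genes. RNA-seq libraries labelled MAZR-cKO (MAZRf/f, DEREG-eGFP+, CD4-cre+) were set against libraries labelled WT (wild type, DEREG-eGFP+), with 3 libraries under each label. CD4+eGFP+ cells had been sorted from spleens of C57BL/6 mice aged 6 to 8 weeks. The DEREG transgene, carried under both labels, marks cells that express Foxp3 by green fluorescence. Cre under Cd4 control is active in all T cells that pass through the CD4+CD8+ stage in the thymus, so that a deletion would not be limited to Treg cells. The labels name no Cre for the WT mice, and they do not say whether a library came from 1 animal or a pool. The p-values rest on the spread from library to library, and how far it is one between animals is not known.

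The T cell receptor binds antigen but has no enzyme activity of its own and signals through the CD3 and zeta chains. The kinase Lck, kept in check by Csk and primed by the phosphatase CD45, phosphorylates these chains, ZAP-70 binds to them and phosphorylates the adaptors LAT and SLP-76, and the complex on LAT activates phospholipase C, Ras, protein kinase C-theta and calcium entry. Calcium acts through calcineurin on the NFAT transcription factors, and Cbl ubiquitin ligases, phosphatases and diacylglycerol kinases limit the signal. Treg cells need this receptor both for their development in the thymus and for their suppressive activity. MAZR is the zinc finger protein that Patz1 encodes, a DNA-binding factor known from thymocytes that settle on a CD4 or a CD8 fate.

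The libraries held 15481565 to 28184456 reads, and each gene of the machinery had 216 to 68592 reads in each library. Patz1 was higher, not lower, under the label MAZR-cKO, at 177, 181 and 179 CPM, against 71.6, 74.9 and 67.6 CPM under WT. CPM are reads per gene after scaling of each library, as deposited. The log2 difference of Patz1 was 1.32 (limma adjusted p = 3.7e-06). A value for a whole gene does not show whether the segment meant to be deleted was present, so the groups are named by their labels and each direction is that of one label against the other. The 6 Treg markers Foxp3, Cd4, Il2ra, Ctla4, Ikzf2 and Tnfrsf18 summed to 4550 to 4942 CPM under MAZR-cKO and 4568 to 5068 CPM under WT. Sums for other cell types were lower by far: B cell markers reached 57.4 to 96.7 CPM under MAZR-cKO and 67.2 to 81.0 CPM under WT, and CD8 T cell markers 25.2 to 26.8 CPM under MAZR-cKO and 22.0 to 23.5 CPM under WT. NK cell markers reached 31.5 to 67.3 CPM under MAZR-cKO and 35.5 to 55.4 CPM under WT, and plasma cell markers 9.67 to 33.3 CPM under MAZR-cKO and 12.8 to 29.7 CPM under WT. Myeloid markers summed to 110.1, 88.0 and 40.3 CPM under MAZR-cKO and 77.4, 70.0 and 64.3 CPM under WT, and those of red cells and platelets to 9.57 to 20.3 CPM under MAZR-cKO and 13.9 to 48.9 CPM under WT. No defining marker was at 0 in all 6 libraries. Library MAZR-cKO 2 stood apart in holding almost no Y-linked transcripts, at 0.48 CPM summed over 4 genes. The other libraries of that label had 116 and 199 CPM, and those under WT 164 to 276 CPM. Xist was at 605 to 1552 CPM under MAZR-cKO and 355 to 774 CPM under WT. Every library but MAZR-cKO 2 thus held both Y-linked transcripts and Xist. Their means were unequal between MAZR-cKO and WT, at 105 and 219 CPM for the Y-linked sum and 1101 and 563 CPM for Xist. Whether libraries mixed cells of both sexes, unevenly between the labels, was not tested.

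None of the 42 genes differed between the labels in limma after Benjamini-Hochberg adjustment over all 12040 genes tested, where 5 genes, or 0.0415%, were called. The smallest adjusted p among the 42 was 0.914. In simulated data, with a spread not fitted to these libraries, limma called 5 of 59 genes changed 1.2-fold. That rate need not hold for the 42 genes. The absence of a call does not show equal levels, and the interval of each gene, described in the next paragraph, gives its range of differences. All 42 passed the filter of 1 CPM in at least 3 libraries. When replicates of the same number were blocked, limma called 0 of the 42, beside 0.382% of all genes, and the smallest adjusted p was 0.322. edgeR on the recovered reads called 0, beside 0.0386%, or 0 beside 0.355% with the block. DESeq2 called 0, beside 0.241% of the 13668 genes to which it gave an adjusted p.

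The differences were small as well as uncalled. The log2 differences, MAZR-cKO minus WT, ran from -0.15 for Sh2d1a to 0.09 for Txk, and 28 of the genes were below 0 and 14 above it, beside 56.1% of all tested genes below 0. Their median was -0.03, beside -0.01 over all genes tested. The median size of the difference, whatever its sign, was 0.04 for the 42 genes and 0.07 over all genes tested, or 0.05 over the 8053 tested genes whose mean level reached that of Tec, the lowest of the 42. For 41 of the 42 genes the 95% interval of the limma fold lay within 1.2-fold either way, beside 48.8% of all tested genes and 71.7% of those at or above the level of Tec. The exception was Sh2d1a, with a lower bound of 0.805, and the highest upper bound was 1.195, for Nfatc3. These bounds belong to single genes and are not a common limit of detection. For each gene, differences inside its own interval cannot be told apart with these libraries. The intervals are not adjusted for the number of genes tested.

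**Figure D1:**
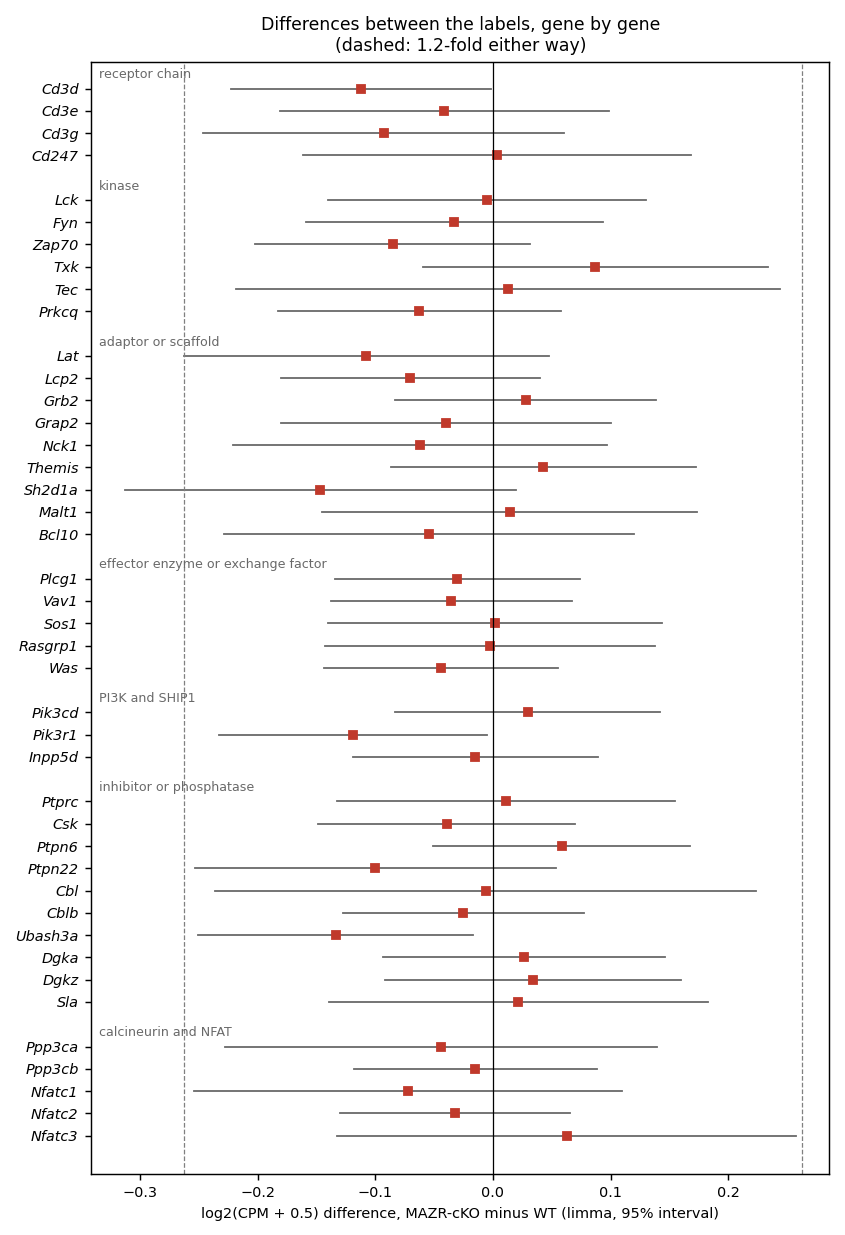
Log2(CPM + 0.5) difference, MAZR-cKO minus WT, for each of the 42 genes by role, as the limma estimate (square) with its 95% interval (line). The estimates run from -0.15 to 0.09, and the interval of Sh2d1a is the one that crosses the dashed line at 1.2-fold.

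**Figure D2:**
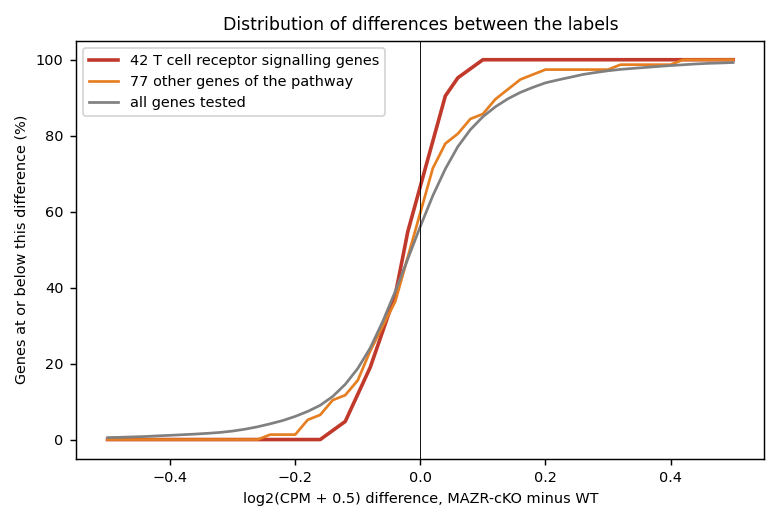
Percentage of genes at or below each log2(CPM + 0.5) difference, MAZR-cKO minus WT, for the 42 genes, for 77 other genes of the pathway and for all genes tested. The line of the 42 genes is the steepest and reaches 100% by a difference of 0.1.

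Counted together, 3 of the 42 genes, Cd3d, Pik3r1 and Ubash3a, were lower under MAZR-cKO without overlap and 0 were higher without overlap, or 7.14% and 0%, beside 5.74% and 5% of all genes tested. These same 3 were the genes at an unadjusted limma p under 0.05, all lower, beside 2.92% of all genes lower and 2.33% higher at that limit. With the block 5 were lower and 0 higher, Lat and Sh2d1a being added, beside 6.66% and 3.98% of all genes. edgeR left 1 gene at that limit, Ubash3a, lower, beside 2.15% of all genes lower and 3.04% higher. DESeq2 left 0, beside 0.941% lower and 1.1% higher. These DESeq2 shares are over 22201 genes, taken without the filter on level, and are not on the base of the other shares. Without MAZR-cKO 2, the library with almost no Y-linked transcripts, 0 of the 42 were called, beside 0.0415% of all genes in the same fit, 0 were at that limit, beside 3.87%, and 33, or 78.6%, had an interval within 1.2-fold, beside 45.1%. Within pairs, 9 genes were lower in all 3 and 3 were higher in all 3, beside 19.2% and 12.9% of all genes tested.

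The promoters of Cd3d, Pik3r1 and Ubash3a are shown because these genes had an unadjusted limma p under 0.05, though none was called. MAZR is a DNA-binding factor, but its binding to these windows was not measured. The windows, from RefSeq (GRCm38.p6), run from 250 bases before to 50 after an annotated start, printed 5′ to 3′ on the strand of the gene. Capitals mark GGGAGGG, the core to which the related factor MAZ is known to bind, or its reverse complement CCCTCCC, so that both strands were searched, and since these forms share no letters they cannot overlap.
Ubash3a (chr17:31207816-31208115, plus strand): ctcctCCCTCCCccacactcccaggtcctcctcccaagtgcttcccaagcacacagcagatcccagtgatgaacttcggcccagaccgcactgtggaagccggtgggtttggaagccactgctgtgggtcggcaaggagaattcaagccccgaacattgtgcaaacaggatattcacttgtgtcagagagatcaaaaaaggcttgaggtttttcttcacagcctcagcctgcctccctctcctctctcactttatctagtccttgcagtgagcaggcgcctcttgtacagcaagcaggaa
Pik3r1, long form (chr13:101768168-101768467, minus strand): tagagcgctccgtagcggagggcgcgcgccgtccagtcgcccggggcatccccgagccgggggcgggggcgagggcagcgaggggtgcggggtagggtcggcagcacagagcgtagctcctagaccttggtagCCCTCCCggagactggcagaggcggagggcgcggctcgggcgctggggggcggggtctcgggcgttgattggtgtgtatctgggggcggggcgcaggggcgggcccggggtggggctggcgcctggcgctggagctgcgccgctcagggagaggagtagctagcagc
Pik3r1, internal start (chr13:101692581-101692880, minus strand): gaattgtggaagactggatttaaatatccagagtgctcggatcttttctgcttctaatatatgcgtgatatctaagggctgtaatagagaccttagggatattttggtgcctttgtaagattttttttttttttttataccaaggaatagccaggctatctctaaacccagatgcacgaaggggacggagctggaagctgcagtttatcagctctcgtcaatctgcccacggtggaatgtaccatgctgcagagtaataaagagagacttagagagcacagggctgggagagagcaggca
Cd3d (chr9:44981536-44981835, plus strand): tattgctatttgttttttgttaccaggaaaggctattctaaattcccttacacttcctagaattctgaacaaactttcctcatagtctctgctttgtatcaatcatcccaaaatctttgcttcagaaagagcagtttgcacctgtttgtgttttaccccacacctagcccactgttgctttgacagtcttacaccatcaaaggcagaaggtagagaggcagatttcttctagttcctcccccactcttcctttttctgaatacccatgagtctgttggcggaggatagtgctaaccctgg
Ubash3a and the first Pik3r1 window hold 1 match each, and the internal Pik3r1 window and Cd3d hold 0. Promoters were found for 37 of the 42 genes, with 56 windows, of which 10, or 17.9%, hold a match, beside 22.0% of all 32851 windows. A match is a run of letters and not a measured binding site, and its absence says only that these letters are not in the window.

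Of the receptor chains, none was called, and the CD3-delta gene Cd3d came nearest. Cd3d (ENSMUSG00000032094) stood at 354, 341 and 367 CPM under the label MAZR-cKO, against 381, 396 and 371 CPM under WT. The window at its start is printed above. Each of the 3 values under MAZR-cKO lay below each of the 3 under WT, with a gap of a few CPM between the nearest libraries. The log2 difference was -0.11 (SE 0.05), a ratio of 0.925 (95% interval 0.857 to 0.999), with an unadjusted limma p of 0.0475 and an adjusted p of 0.914. In 3 libraries against 3 an exact two-sided permutation test of a single gene cannot go below p = 0.1, which is what groups without overlap give.

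Cd3g, whose gene lies head to head with Cd3d, had 432, 373 and 422 CPM under the label MAZR-cKO, against 428, 462 and 416 CPM under WT. Here library MAZR-cKO 2 was the lowest of the 6, while the other libraries of that label lay among those labelled WT, so that the groups overlapped. Cd3e, the chain to which most activating antibodies bind, had 476, 522 and 519 CPM under the label MAZR-cKO, against 516, 555 and 491 CPM under WT. Cd247, which encodes the zeta chain, had 363, 400.3 and 375 CPM under the label MAZR-cKO, against 357, 422 and 359 CPM under WT, and its log2 difference was 0.00 (SE 0.07). WT replicate 2 was the highest library for Cd3d, Cd3e, Cd3g and Cd247 alike. Cd247 overlaps Pou2f1 on the opposite strand, whose mean of 102 CPM is 26.8% of that of Cd247, and it is not given whether reads were counted by strand. In all, 29 of the 42 genes overlap another gene model, and for the others of these no overlapping gene reached 10% of the level of the gene.

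**Figure D3:**
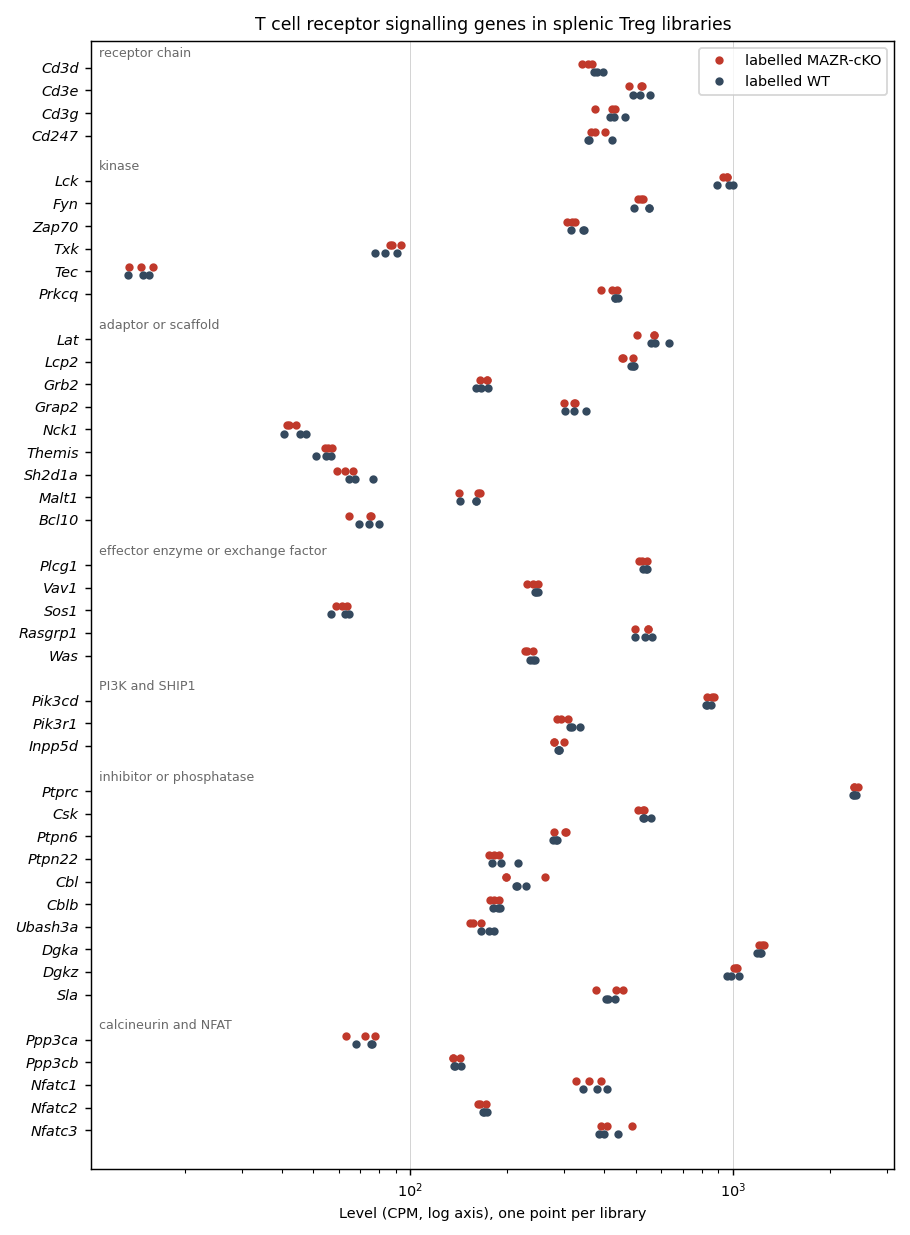
Level in CPM (log axis) of the 42 genes in each library, grouped by role, with 3 points under the label MAZR-cKO above 3 points under WT for each gene. The points of the 2 labels overlap for all genes except Cd3d, Pik3r1 and Ubash3a, and the genes span from 13.3 CPM for Tec to 2443 CPM for Ptprc.

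Among the kinases, Lck was the highest per exon length and was close to equal under the labels. It stood at 933, 961 and 959 CPM under the label MAZR-cKO, against 970.2, 1004 and 892 CPM under WT, with a log2 difference of -0.01 (SE 0.06). All libraries under MAZR-cKO lay within the range of those under WT. Fyn, the second Src-family kinase of T cells, averaged 519 ± 9.63 CPM under the label MAZR-cKO and 532 ± 32.3 CPM under WT (SD, n = 3 each). Zap70, whose product is recruited to the phosphorylated zeta chain, stood at 318, 305 and 323 CPM under the label MAZR-cKO, against 342, 347 and 316 CPM under WT, and the groups overlapped because MAZR-cKO 1 and 3 lay above WT 3.

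The Tec-family kinases Txk and Tec act on phospholipase C-gamma, and neither was called. Txk had 86.4, 87.6 and 93.6 CPM under the label MAZR-cKO, against 83.5, 77.8 and 90.8 CPM under WT. It was higher under MAZR-cKO within each of the 3 pairs of libraries that share a replicate number, and its log2 difference of 0.09 (SE 0.06) was the highest of the 42, with an adjusted limma p of 0.919. Tec, the lowest gene of the 42 also per exon length, had 13.4, 14.7 and 16.0 CPM under the label MAZR-cKO, against 13.3, 14.9 and 15.4 CPM under WT, so that the labels overlapped. Prkcq, the gene of protein kinase C-theta, averaged 417 ± 24.1 CPM under the label MAZR-cKO and 435 ± 6.11 CPM under WT, with library MAZR-cKO 1 the lowest of the 6.

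The adaptors and scaffolds included the gene of largest difference, Sh2d1a, and none was called. Sh2d1a encodes SAP, the adaptor of SLAM-family receptors, and lies on the X chromosome. It had 66.3, 62.6 and 59.2 CPM under the label MAZR-cKO, against 67.4, 76.5 and 64.7 CPM under WT. WT replicate 2 stood above the rest, and MAZR-cKO 1 lay between the libraries of WT, so that the groups overlapped. The log2 difference was -0.15 (SE 0.07), the adjusted p 0.914 without the replicate block and 0.400 with it. Xist and the Y-linked sum also differed between these libraries, and with the log2 Y-linked sum as a covariate the log2 difference of Sh2d1a was -0.16 (SE 0.09). On the log2 scale this covariate mainly sets MAZR-cKO 2 apart, so it does not adjust for Xist or the Y-linked sum across the other libraries. Without MAZR-cKO 2 the log2 difference of Sh2d1a was -0.15 (SE 0.08).

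Lat, the membrane adaptor on which the signalling complex forms, had 506, 569 and 568 CPM under the label MAZR-cKO, against 559.6, 636 and 575 CPM under WT. It was lower under MAZR-cKO in each of the 3 pairs, yet libraries of each label overlapped, with a log2 difference of -0.11 (SE 0.07) and a blocked unadjusted p of 0.0384. Lcp2, which encodes SLP-76, had 489.8, 452 and 458 CPM under the label MAZR-cKO, against 493, 492 and 484 CPM under WT, lower in each pair but with MAZR-cKO 1 above WT 3. Grap2, the gene of the linker Gads between LAT and SLP-76, averaged 315 ± 12.8 CPM under the label MAZR-cKO and 325 ± 24.2 CPM under WT. Grb2, which brings Sos1 to LAT, averaged 169.9 ± 4.42 CPM under the label MAZR-cKO and 167 ± 7.57 CPM under WT, and both genes overlapped between the labels.

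Themis, known mainly for thymocyte selection, averaged 55.8 ± 1.36 CPM under the label MAZR-cKO and 54.2 ± 2.83 CPM under WT. Nck1, an adaptor between the receptor and the actin skeleton, averaged 42.5 ± 1.43 CPM under the label MAZR-cKO and 44.5 ± 3.51 CPM under WT. Malt1 and Bcl10 belong to the complex that links protein kinase C-theta to NF-kB. Malt1 had 164, 162 and 142 CPM under the label MAZR-cKO, against 160.3, 160.0 and 142 CPM under WT, with replicate 3 the lowest under either label. Bcl10 averaged 71.9 ± 6.26 CPM under the label MAZR-cKO and 74.6 ± 5.26 CPM under WT. The log2 differences of these 4 genes lay between -0.06 and 0.04.

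The effector enzymes and exchange factors had the narrowest range of differences of the 7 roles, with log2 differences from -0.04 to 0.00 over 5 genes and 0 called. Plcg1, the phospholipase that makes inositol trisphosphate and diacylglycerol, had 541, 512 and 523 CPM under the label MAZR-cKO, against 539.7, 528 and 542 CPM under WT, so that its highest library was only 1.06 times its lowest. Vav1, whose product binds SLP-76, averaged 239.5 ± 9.28 CPM under the label MAZR-cKO and 245 ± 2.99 CPM under WT. Rasgrp1, the Ras exchange factor that diacylglycerol recruits, averaged 530.1 ± 28.8 CPM under the label MAZR-cKO and 531 ± 30.9 CPM under WT, and Sos1, the Ras exchange factor that Grb2 carries, averaged 61.2 ± 2.36 CPM under the label MAZR-cKO and 61.2 ± 4.04 CPM under WT. Was, the X-linked actin regulator mutated in Wiskott-Aldrich syndrome, averaged 233 ± 7.48 CPM under the label MAZR-cKO and 239.8 ± 4.00 CPM under WT, a log2 difference of -0.04 (SE 0.04).

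Of the phosphoinositide 3-kinase genes, Pik3r1 was low without overlap and Pik3cd was nearly equal. Pik3r1 (ENSMUSG00000041417), which encodes the regulatory subunits p85-alpha, p55-alpha and p50-alpha, had 285, 293 and 308 CPM under the label MAZR-cKO, against 316, 312 and 336 CPM under WT. All 3 libraries under MAZR-cKO lay below all 3 under WT, and all 3 pairs pointed the same way, by log2 differences of -0.15, -0.09 and -0.12. Over the groups the log2 difference was -0.12 (SE 0.05), a ratio of 0.921 (95% interval 0.851 to 0.996). The unadjusted limma p was 0.0422 and the adjusted p 0.914, or 0.322 with the block, so the gene was not called. Pik3cd, the catalytic subunit p110-delta that leukocytes use, had 834, 861 and 872 CPM under the label MAZR-cKO, against 828, 857 and 829 CPM under WT. Inpp5d, which encodes the opposing lipid phosphatase SHIP1, averaged 286 ± 12.2 CPM under the label MAZR-cKO and 289 ± 1.87 CPM under WT, and both overlapped between the labels.

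Ubash3a had the smallest unadjusted p of the 42 genes. It encodes STS-2, a suppressor of receptor signalling that lymphocytes express (ENSMUSG00000042345), and stood at 166, 154 and 156 CPM under the label MAZR-cKO, against 175, 181 and 166 CPM under WT. MAZR-cKO 1 and WT 3 differed by a fraction of 1 CPM, at 165.5 and 165.6 CPM, so that the absence of overlap rests on a gap smaller than the spread between libraries. The log2 difference was -0.13 (SE 0.05), a ratio of 0.911 (95% interval 0.841 to 0.988). Its unadjusted limma p was 0.0293 and its adjusted p 0.914, or 0.334 with the block.

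Neither the phosphatase genes nor Csk were called. Ptprc, which encodes CD45, had the highest CPM of the 42, at 2371, 2443 and 2379 CPM under the label MAZR-cKO, against 2406, 2359 and 2372 CPM under WT, and its highest library was 1.04 times its lowest. Csk, which inactivates Lck and Fyn, averaged 522 ± 12.8 CPM under the label MAZR-cKO and 537 ± 17.5 CPM under WT. Ptpn22, a phosphatase that works with Csk, had 188, 176 and 182 CPM under the label MAZR-cKO, against 215, 192 and 179 CPM under WT, and WT replicate 1 was the library above the others. Ptpn6, the gene of SHP-1, averaged 294 ± 13.8 CPM under the label MAZR-cKO and 282 ± 4.25 CPM under WT. Ptprc, Ptpn6 and Inpp5d are also used by B and myeloid cells, whose marker sums are given above. The myeloid sum was highest in MAZR-cKO 1 and lowest in MAZR-cKO 3. The part of those cells in the values was not tested, and in bulk samples fewer cells of a type and less RNA per cell cannot be told apart.

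Cbl and Cblb, ubiquitin ligases that limit receptor signalling, behaved differently between libraries. Cbl had 262, 197 and 198 CPM under the label MAZR-cKO, against 213, 214 and 228 CPM under WT. MAZR-cKO 1 lay above all other libraries and the other 2 of its label lay below all of WT, which gave Cbl the widest spread of the 42, a within-label SD of 0.17 on the log2 scale. Its log2 difference was -0.01 (SE 0.10), so that the near-equal means join a high and a pair of low libraries. Cblb, in contrast, had 182, 188 and 177 CPM under the label MAZR-cKO, against 189, 187 and 180.3 CPM under WT, with no library apart.

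Dgka and Dgkz encode the kinases that remove diacylglycerol, and both were slightly higher in mean under MAZR-cKO without a call. Dgka had 1233, 1249.8 and 1204 CPM under the label MAZR-cKO, against 1219, 1213 and 1188 CPM under WT, higher under MAZR-cKO within each pair by log2 differences of 0.02 to 0.04. Dgkz averaged 1021 ± 12.3 CPM under the label MAZR-cKO and 998 ± 46.1 CPM under WT. Sla, the gene of the adaptor SLAP that promotes turnover of the receptor, had 433, 457 and 378 CPM under the label MAZR-cKO, against 403, 431 and 411 CPM under WT, so that the lowest and the highest library both carried the label MAZR-cKO.

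Of calcineurin and NFAT, none of 5 genes was called, and the NFAT genes differed in how steady they were. Nfatc1 had 389, 357 and 327 CPM under the label MAZR-cKO, against 379, 408 and 342 CPM under WT, and Nfatc3 had 406, 486 and 391 CPM under the label MAZR-cKO, against 386, 442 and 398 CPM under WT. Replicate 3 was the lowest for Nfatc1 under both labels, while replicate 2 was the highest for Nfatc3 under both. Nfatc2 had 172, 162 and 165 CPM under the label MAZR-cKO, against 168, 172 and 169.8 CPM under WT, a within-label SD of 0.03 on the log2 scale against 0.13 for Nfatc1 and 0.14 for Nfatc3. Ppp3ca and Ppp3cb, which encode catalytic subunits of calcineurin, averaged 71.1 ± 7.40 CPM under the label MAZR-cKO and 73.1 ± 4.46 CPM under WT for Ppp3ca, and 138 ± 4.15 CPM under the label MAZR-cKO and 139 ± 3.76 CPM under WT for Ppp3cb.

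Between libraries of one label, the typical gene of the 42 varied little. The within-label SD on the log2 scale had a median of 0.06 (range 0.02 for Ptprc to 0.17 for Cbl), beside 0.10 over all genes tested and 0.08 over the tested genes at or above the level of Tec. Neither comparison was matched for level. The median level of the 42 genes was 314 CPM, beside 32.3 CPM for the median tested gene. Whether the small spread goes with high level was not tested. The sum of the 42 genes took 1.72%, 1.71% and 1.70% of the CPM of the libraries labelled MAZR-cKO 1, 2 and 3, against 1.72%, 1.74% and 1.68% of WT 1, 2 and 3. WT 2 was the highest library for 15 of the 42 genes, and MAZR-cKO 1 and 2 were the lowest for 11 and 10. The CPM sum was also highest in WT 2, at 99.2% of the per-million total, and lowest in MAZR-cKO 1, at 96.2%. The part of library scaling in these rankings was not tested. After subtraction of the mean of each label, libraries of the same number correlated across the 42 genes at 0.44, 0.26 and 0.44 for numbers 1, 2 and 3, which is a description across genes that share libraries. Over all genes tested the same values were 0.40, 0.38 and 0.38.

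**Figure D4:**
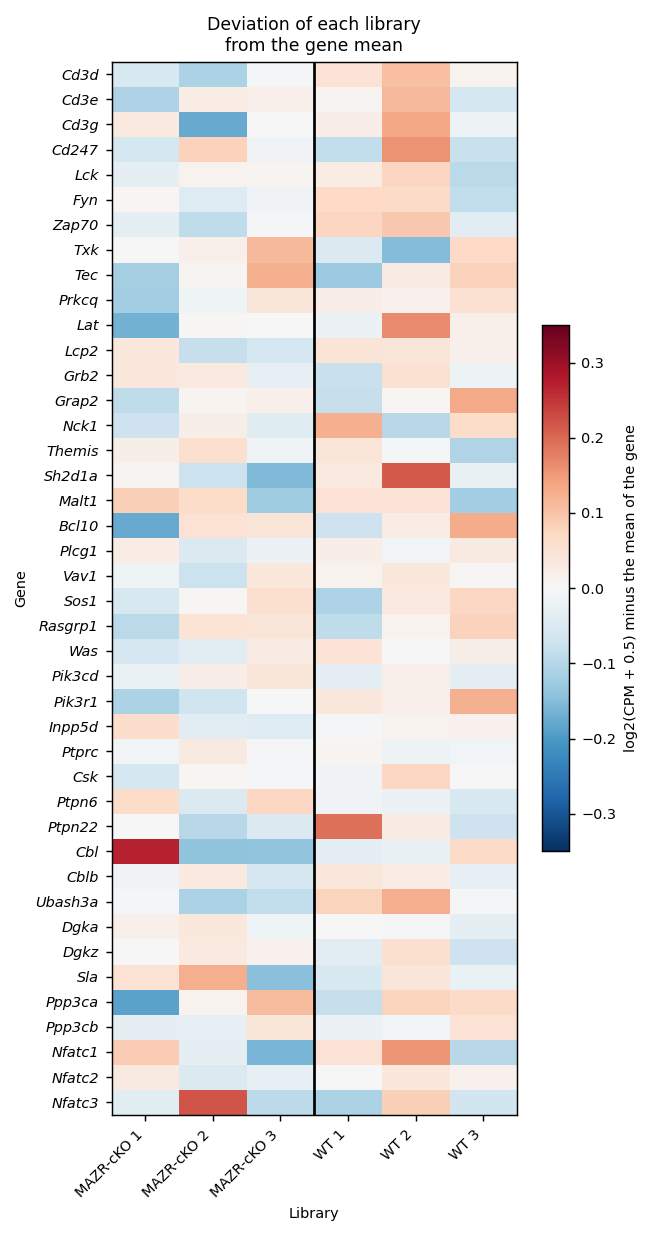
Deviation of each library from the mean of the gene over the 6 libraries, on the log2(CPM + 0.5) scale, for the 42 genes (rows) in the libraries labelled MAZR-cKO 1 to 3 and WT 1 to 3 (columns). Red is above and blue below the mean of the gene, and Cbl in MAZR-cKO 1, at 0.27, is the deepest red.

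Levels of different genes were compared per length, as CPM per kilobase of the union of annotated exons. On that scale Lck came first, at 325 ± 5.38 under MAZR-cKO and 326 ± 19.5 under WT. Dgka followed at 258 ± 4.84 under MAZR-cKO and 253 ± 3.43 under WT. Lat stood at 198 ± 13.0 under MAZR-cKO and 213 ± 14.7 under WT, and Cd3d at 195 ± 7.14 under MAZR-cKO and 211 ± 6.95 under WT, so that these 2 genes lay within each other's spread. Tec was the lowest at 3.92 ± 0.338 under MAZR-cKO and 3.88 ± 0.295 under WT, after Themis and Sos1. The union of exons includes exons that these cells may not use, which lowers long composite genes. With the longest protein-coding transcript as the length, the mean over 6 libraries was 471 for Ptprc, 461 for Lat, 436 for Lck, 429.8 for Dgka and 413 for Cd3g, and Tec was again the lowest at 5.49.

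Ratios of related genes within a library do not depend on how the library was scaled, and the values of all 8 ratios overlapped between the labels. The ratio of Dgkz to Dgka was 0.831 ± 0.0150 under MAZR-cKO and 0.826 ± 0.0329 under WT (SD, n = 3 each, as for all ratios). For Fyn to Lck it was 0.546 ± 0.0186 under MAZR-cKO and 0.557 ± 0.0105 under WT, and for Cd247 to Cd3e 0.751 ± 0.0245 under MAZR-cKO and 0.728 ± 0.0351 under WT. These 3 ratios kept within a narrow range over all 6 libraries. The ratio of Nfatc3 to Nfatc2 was 2.58 ± 0.360 under MAZR-cKO and 2.40 ± 0.140 under WT, raised by MAZR-cKO 2 at 2.99. Cblb to Cbl stood at 0.848 ± 0.135 under MAZR-cKO and 0.852 ± 0.0537 under WT, with MAZR-cKO 1 the lowest at 0.695. Tec to Txk was 0.164 ± 0.00799 under MAZR-cKO and 0.174 ± 0.0162 under WT, Ppp3cb to Ppp3ca 1.95 ± 0.168 under MAZR-cKO and 1.91 ± 0.0995 under WT, and Ptpn22 to Csk 0.348 ± 0.0201 under MAZR-cKO and 0.364 ± 0.0398 under WT. Two-sided exact permutation tests of the log2 ratios gave p = 0.4 to 1, or 0.914 to 1 after Benjamini-Hochberg adjustment over the 8, where 0.1 is the smallest unadjusted p possible.

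**Figure D5:**
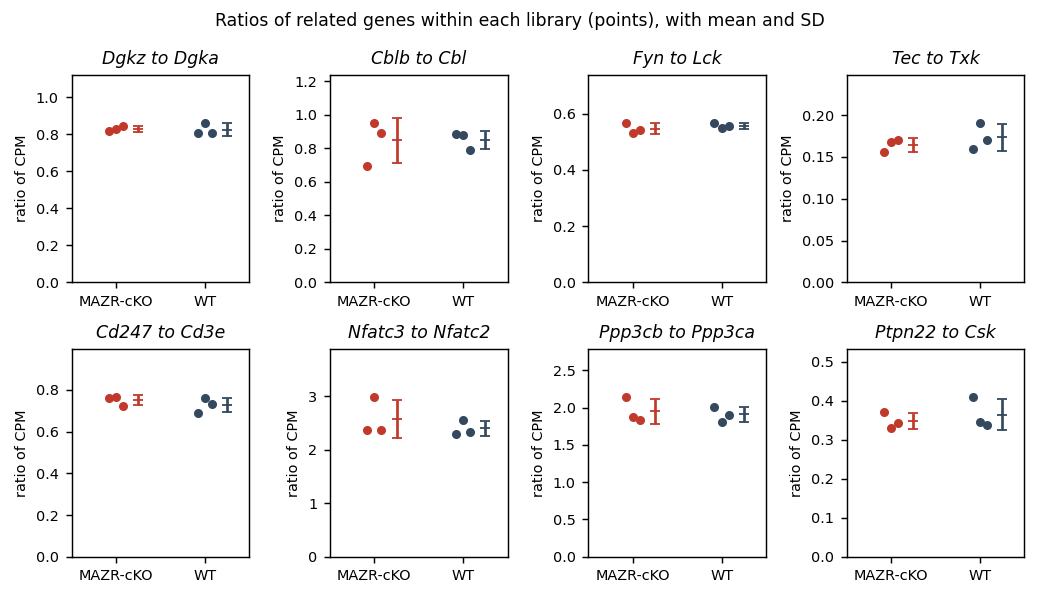
Ratio of the CPM of related genes in each library (points) with the mean and SD of 3 libraries (bar), for the labels MAZR-cKO (left) and WT (right), on axes that start at 0. The points of the labels overlap in all 8 ratios.

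A list of 77 other genes of the pathway, all of them tested, gave 0 calls in limma, with and without the block, and 0 in edgeR and DESeq2. Of these, 46 were below and 31 above 0, with a median log2 difference of -0.01, and 7 were higher and 7 lower without overlap, or 9.09% each way, beside 5% higher and 5.74% lower of all genes tested. The gene of smallest p was Rasgrp4, a Ras exchange factor best known from mast cells, at 23.6, 28.3 and 23.0 CPM under the label MAZR-cKO, against 18.2, 17.4 and 20.6 CPM under WT. Its groups did not overlap, with a log2 difference of 0.40 (SE 0.10) and an adjusted limma p of 0.724. Sh2d2a, which encodes the T cell adaptor TSAd, an interactor of Lck, had 352, 347 and 364 CPM under the label MAZR-cKO, against 393, 405 and 394 CPM under WT, also without overlap, and an adjusted p of 0.725.

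Vav2 and Vav3, relatives of Vav1, differed in sign. Vav2 averaged 137 ± 7.76 CPM under the label MAZR-cKO and 122 ± 0.748 CPM under WT, with a log2 difference of 0.16 (SE 0.05), and Vav3 averaged 33.0 ± 1.60 CPM under the label MAZR-cKO and 37.9 ± 1.58 CPM under WT, with -0.20 (SE 0.07). Neither was called, both having an adjusted p of 0.914, and the difference between them was not tested. Ubash3b, the relative of Ubash3a that encodes STS-1, averaged 87.4 ± 4.83 CPM under the label MAZR-cKO and 104 ± 11.2 CPM under WT, a log2 difference of -0.25 (SE 0.08), with an adjusted p of 0.914, or 0.112 with the block. Dgke, a further diacylglycerol kinase, averaged 53.7 ± 2.84 CPM under the label MAZR-cKO and 47.7 ± 2.92 CPM under WT. In limma with the block and without replicate 3, 279 of all genes were called, or 2.32%, and with them 4 of these 77 genes but 0 of the 42. Rasgrp4, Nfat5 and Tnfaip3 were higher and Sh2d2a lower in that fit. Tnfaip3, which encodes the NF-kB inhibitor A20, had 259.9, 318 and 172 CPM under the label MAZR-cKO, against 176, 208 and 199.8 CPM under WT, with replicate 3 of MAZR-cKO the lowest of the 6 and the others of that label the highest, and its adjusted p over all libraries was 0.914, or 0.381 with the block. Tnfaip3 and Nfat5 were singled out after their values had been seen.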

How the data were processed

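Per the labels, splenic CD4+eGFP+ Treg cells were profiled by stranded poly(A) RNA-seq in 6 libraries. The authors deposited CPM values per gene, and the submitters' processing notes name FastQC, STAR 2.5.2b, Subread 1.5.1, R 3.4, edgeR and mm10, without roles, settings or annotation release. The CPM values of a library did not sum to a common total. They reached 96.2% of the per-million total in MAZR-cKO 1, the lowest, and 99.2% in WT 2, the highest. Divided by what 1 read is worth in its library, 100% of values came out whole within 0.01, so reads were recovered; a gene at 1 CPM rests on few reads, while the 42 genes had 216 or more. Coordinates and exon lengths are from GENCODE M21 (GRCm38, the assembly of mm10), which held 45229 of the 46078 identifiers.

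limma 3.58.1 (R 4.3.3) with an intensity trend was fitted to log2(CPM + 0.5) of 12040 genes with 1 CPM or more in at least 3 libraries, with Benjamini-Hochberg adjustment over all of them and a threshold of 0.05. Fold changes are on that scale, which understates those of low genes. edgeR 4.0.16 quasi-likelihood and DESeq2 1.42.0 on the recovered reads were alternatives, on which edgeR called 5 of 12957 genes. The scripts were tested on simulated data. Titles share replicate numbers, and descriptions share a code per number; same-number libraries correlated at 0.40, 0.38 and 0.38 after removal of label means, each over 0.1, and the fit with the number as a block is therefore given as a paired one. Reads of no 2 libraries agreed within sampling noise (chi-square per degree of freedom 5.39 to 19.0). Members and lists were chosen with earlier results of these data known. Named were all 42 genes, those of the other pathway genes called in either limma fit and the 6 of smallest p; Tnfaip3 and Nfat5 were added after their values were seen.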

Additional observations from a re-analysis of the deposited data

How the results depend on the processing

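Under 20 alternatives to the fit reported first (pseudocount, filter, normalization, replicate block, edgeR, DESeq2, Y-linked covariate, and libraries or pairs left out) 0 of the 42 genes were called, with or without the replicate block. For the 77 other genes 0 were called except in the block without replicate 3, with 4. Genes of the 42 at an unadjusted p under 0.05, 3 as reported, numbered 0 with quantile normalization, DESeq2 or the Y-linked covariate, 1 with equal medians or edgeR, 5 with the replicate block, 1 and 10 with the block without replicates 2 and 3, and 0 to 5 with 1 library left out; these counts were added after seeing the data. Of all genes, 5.27% were at that limit with quantile normalization, 2.04% with DESeq2, 3.99% with the covariate, 5.36% with equal medians, 5.19% with edgeR, 10.6% with the block, 5.72% and 16.6% with the block without replicates 2 and 3, and 3.87% to 9.62% with 1 library left out. The DESeq2 share is over 22201 genes, taken without the filter on level. Genes without overlap, 3 as reported, numbered 0 with quantile normalization, beside 10.9% of all genes. They numbered 4 to 10 (9.52% to 23.8%) with 1 library left out, which needs fewer libraries to be apart, beside 18.3% to 27.7%. A weaker criterion, the same direction in all 3 pairs, allows the labels to overlap and was met by 12 genes (28.6%), beside 32.1% of all genes. The median log2 difference was -0.010 with quantile normalization, -0.011 with the block without replicate 2, and -0.035 to -0.014 with 1 library left out. With 1 library left out, log2 ratio differences changed sign within -0.0088 to 0.041 (Dgkz to Dgka), -0.111 to 0.117 (Cblb to Cbl), -0.017 to 0.153 (Nfatc3 to Nfatc2), -0.040 to 0.071 (Ppp3cb to Ppp3ca) and -0.111 to 0.028 (Ptpn22 to Csk); the cause was not tested. The difference changed sign in at least 1 setting for 21 of the 42 genes, but not for Cd3d, Pik3r1 or Ubash3a, whose limma adjusted p ran from 0.0993, 0.206 and 0.127 upward. Intervals within 1.2-fold held for 31 to 41 genes (73.8% to 97.6%) over the limma settings, beside 38.8% to 59.5% of all genes. Each of the 42 genes had 216 or more reads in every library.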
